A study of Mus musculus with 8 samples.

Results

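Marker genes of adipocytes were followed in the exorbital lacrimal gland (LG) of mice on 2 diets: Adipoq, Fabp4, Car3, Cfd, Retn, Lep, Lpl, Cd36, Pparg and Pck1. They are 10 of 24552 genes in the count table and were chosen by symbol, as markers of adipocytes, by someone who already knew the calorie-restricted and control counts of these libraries. Their values are therefore given as a description: no p-value is printed for them, and where a member is said to pass or miss the call made over all genes, nothing is read from it. The LG libraries came from female C57BL/6J mice aged 10 to 11 months, 4 fed ad libitum (AL) and 4 kept on 40% calorie restriction (CR) for 4 months from the age of 6 to 7 months. The study states that CR mice were fed daily in the early evening. It kept 2 cohorts of mice on different chows, and does not say whether this feeding time held for both. The cohort of each library is not given in the sources used here, so the part of cohort in any difference was not tested. RNA was read from the 3' end of transcripts and counted per gene. Levels are CPM, the share of a library's counts that fall on a gene, scaled between libraries by relative log expression.

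The exorbital LG makes the watery part of tears and is built of acini, ducts and myoepithelial cells. White adipocytes lie in the connective tissue around and within such glands, store triglyceride in a lipid droplet and secrete adipokines. Pparg, the nuclear receptor that drives fat cell differentiation, acts on many of the genes described here, which carry fatty acids into the cell, bind them, or are released as hormones. In bulk RNA, fewer cells of a type and less RNA per cell cannot be told apart.

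Promoter sequences were read for the members from RefSeq on GRCm38.p6, from 250 bases before to 50 after each start, and are shown because Pparg and the C/EBP factors act on adipocyte promoters. Entries were found for 7 members, 9 entries in all, and Fabp4, Car3 and Lpl had none. The motifs, searched on both strands, were a PPAR element (AGGTCA repeated 2 times with 1 base between, up to 2 mismatches), TATAAA, and the C/EBP palindrome TTGCGCAA with up to 1 mismatch. Below are the 120 bases before the start of 4 members, 5′ to 3′ on the gene's strand, with matches in capitals, at chr16:23146416-23146535 (+), chr10:79890733-79890852 (+), chr5:17835897-17836016 (−) and chr6:29060101-29060220 (+).
Adipoq: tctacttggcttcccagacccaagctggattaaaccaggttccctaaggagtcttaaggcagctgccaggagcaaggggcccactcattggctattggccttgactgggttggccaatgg
Cfd: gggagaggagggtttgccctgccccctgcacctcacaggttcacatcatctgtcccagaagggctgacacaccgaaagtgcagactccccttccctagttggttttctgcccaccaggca
Cd36: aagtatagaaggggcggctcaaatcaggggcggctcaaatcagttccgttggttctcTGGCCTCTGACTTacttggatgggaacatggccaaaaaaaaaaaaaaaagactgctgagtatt
Lep: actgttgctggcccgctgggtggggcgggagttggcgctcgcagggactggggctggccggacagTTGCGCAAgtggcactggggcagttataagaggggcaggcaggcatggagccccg

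The PPAR element was matched in 1 of the 9 member windows, that of Cd36, beginning 63 bases before the RefSeq start of its entry, which lies inside the annotated Cd36 gene, and read on the strand opposite to the gene, against 3.86% of 32851 promoters in the table. With 1 mismatch or none allowed, 0 member windows matched, against 0.554% and 0.0396% of promoters. TTGCGCAA was matched exactly in Lep, 55 bases before the start, against 5.92% of promoters at up to 1 mismatch. TATAAA was found in 1 member window, one of the Pparg starts, against 13.6% of promoters. These matches describe letters in the windows and no binding was measured.

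The libraries held 12051881 to 22156511 counts, so 3 counts, the floor used here for detection, amounted to 0.152 to 0.231 CPM. Of 11211 genes tested across the table by edgeR's quasi-likelihood test, 134 were called higher in CR and 88 lower. A call required at least a 1.5-fold difference together with a Benjamini-Hochberg adjusted p below 0.05. The libraries also differed in genes listed as markers of the parotid gland and of the LG. The tissue these transcripts came from was not tested. Summed parotid gland markers ran from 12010 to 41180 CPM in AL and from 54380 to 297500 CPM in CR. Car6 alone made up 11780 of 12010 CPM in AL replicate 4 and 36510 of 54380 CPM in CR replicate 4. The 12 LG markers ran from 151400 to 166600 CPM in AL and from 61250 to 156900 CPM in CR. Obp1a, an odorant-binding protein gene, made up most of the LG sum, at 147800 to 163000 CPM in AL and 58970 to 152600 CPM in CR, and of the 12 LG markers 6 were fitted higher in CR and 6 lower. CR replicate 4 was the CR library nearest to AL in both lists. The study describes 4 mice per diet. Unless another tool is named, called and not called refer to this edgeR test.

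Of the 8 members that passed the filter on low counts, 8 had a higher fitted level in CR. Their log2 fold changes ran from 0.22 to 2.83 around a median of 1.73, and the median over all genes tested was 0.01. Past both thresholds were 2 members, Fabp4 and Car3, with 0 called lower and 6 not called; 2 members, again Fabp4 and Car3, were above every AL library in every CR library. Among all genes tested, 1.2% were called higher, 0.785% were called lower, 4.58% had every CR library above every AL library and 5.2% had every CR library below. Because the members were selected on these counts, nothing is read from that comparison. Lep and Pck1 did not pass the filter.

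**Figure D1:**
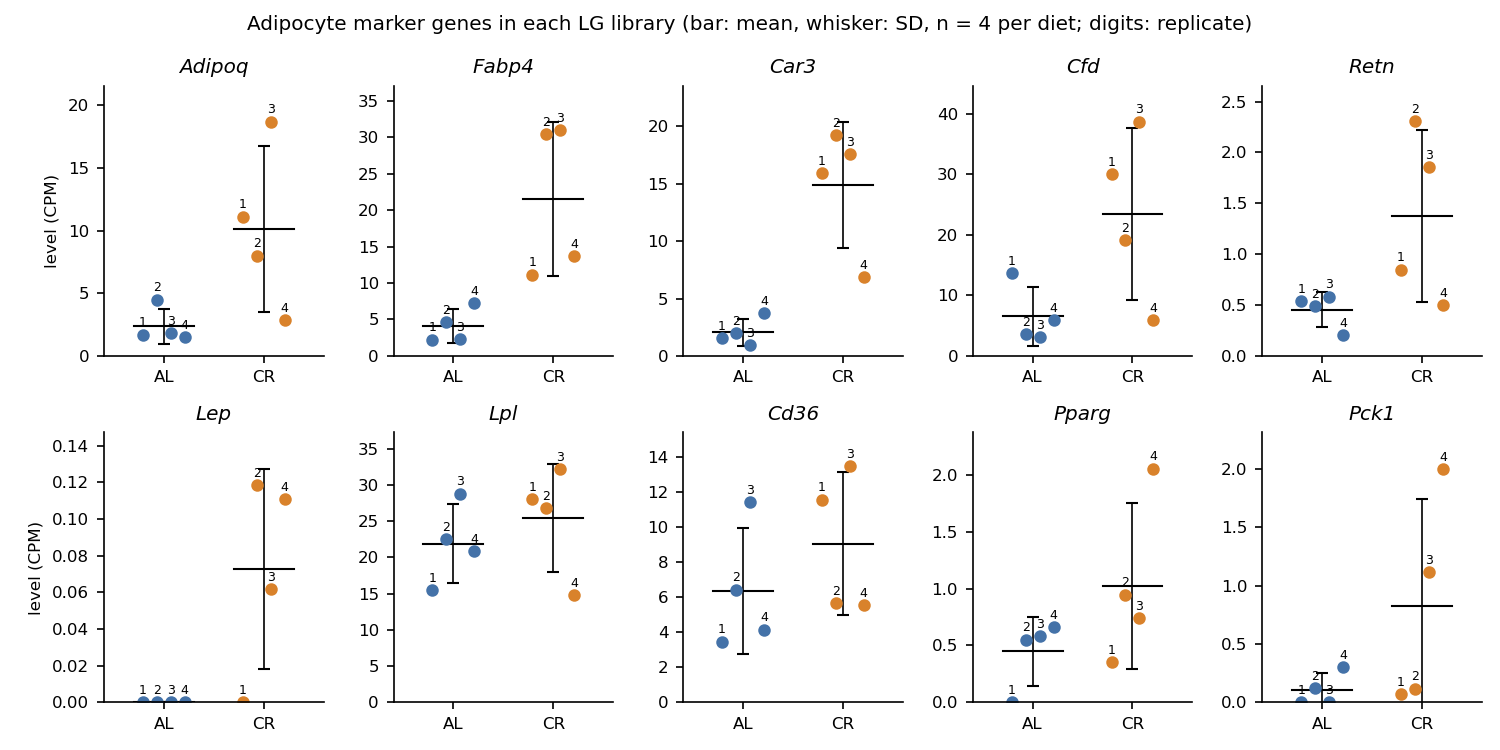
CPM of each adipocyte marker gene in every LG library, AL on the left and CR on the right of each panel, with the mean as a line, the SD as whiskers (n = 4, cut at 0) and the replicate number above each point. Fabp4 and Car3 do not overlap between the diets, while CR replicate 4 lies among the AL libraries for Adipoq, Cfd and Retn.

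Adipoq (gene ID 11450, chr16:23146536-23158028, plus strand) encodes adiponectin, the adipokine made almost wholly by fat cells. It measured 1.69, 4.47, 1.82 and 1.52 CPM in AL replicates 1 to 4, and 11.1, 7.99, 18.7 and 2.83 CPM in CR replicates 1 to 4. CR replicates 1 to 3 were above every AL library and CR replicate 4 was below AL replicate 2, so the diets overlapped. The mean was 2.38 ± 1.40 CPM in AL and 10.2 ± 6.63 CPM in CR (SD, n = 4), a log2 fold change of 2.09 (SE 0.52), and the call was not met. Adipoq was called higher under other settings, among them DESeq2 (log2 fold change 2.09), no filter on low counts (2.09) and omission of CR replicate 4 (2.40), and was not called by limma voom (1.85).

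Fabp4 (gene ID 11770, chr3:10204088-10208576, minus strand) encodes the fatty acid carrier protein of the adipocyte cytoplasm and is also expressed by capillary endothelium and macrophages. It measured 2.23, 4.66, 2.33 and 7.25 CPM in AL, and 11.2, 30.4, 30.9 and 13.7 CPM in CR. Every CR library was above every AL library. Means were 4.12 ± 2.37 and 21.5 ± 10.6 CPM (SD, n = 4), 5.16-fold higher in CR on the fitted scale (log2 fold change 2.37, SE 0.44). The call was kept in 3 of the 8 fits that left out 1 library, in which AL replicate 4 or one of CR replicates 1 and 4 was omitted.

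Car3 (gene ID 12350, chr3:14863512-14872523, plus strand) encodes carbonic anhydrase 3, which is abundant in adipocytes and in slow skeletal muscle. AL libraries held 1.54, 1.96, 0.946 and 3.75 CPM, and CR libraries held 15.9, 19.2, 17.6 and 6.88 CPM. No CR library reached down to an AL library. Means were 2.05 ± 1.21 and 14.9 ± 5.51 CPM (SD, n = 4), a 7.10-fold difference (log2 fold change 2.83, SE 0.42). With 1 library left out the log2 fold change lay between 2.60 and 3.31. Skeletal muscle markers summed to 79.1 and 60.8 CPM in CR replicates 2 and 4 and to 4.73 and 6.31 CPM in CR replicates 1 and 3, and their part in the Car3 level was not tested.

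Cfd (gene ID 11537, chr10:79890853-79892655, plus strand) encodes adipsin, the complement factor D secreted by fat cells. It measured 13.6, 3.55, 3.13 and 5.88 CPM in AL, and 30.0, 19.1, 38.7 and 5.94 CPM in CR. CR replicate 4 was below AL replicate 1 and the other CR libraries were above all AL libraries. The mean was 6.55 ± 4.87 CPM in AL and 23.4 ± 14.1 CPM in CR (SD, n = 4; log2 fold change 1.84, SE 0.55), and the call was not met. Cfd was called higher under other settings, among them limma voom (2.17), no filter on low counts (1.85) and omission of CR replicate 4 (2.17), and was not called by DESeq2 (1.84).

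Retn and Lep encode the adipokines resistin and leptin. Retn (gene ID 57264, chr8:3655770-3660110, plus strand) was counted 7, 8, 8 and 4 times in AL, and 12, 39, 30 and 9 times in CR, or 0.539, 0.490, 0.582 and 0.203 CPM against 0.848, 2.31, 1.86 and 0.499 CPM. CR replicate 4 was again among the AL values, and the log2 fold change of 1.61 (SE 0.62) was not called. Lep (gene ID 16846, chr6:29060220-29073877, plus strand) had 0 counts in every AL library and 0, 2, 1 and 2 counts in CR replicates 1 to 4. All are at or below the floor of 3 counts, so no fold is given, and the leptin transcript was not detectable at this depth.

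Lpl and Cd36 bring fatty acids to the adipocyte. Lpl (gene ID 16956, chr8:68880491-68907448, plus strand) is lipoprotein lipase, which frees fatty acids from circulating triglyceride. It measured 15.5, 22.6, 28.8 and 20.8 CPM in AL, and 28.1, 26.8, 32.2 and 14.8 CPM in CR, and the lowest of all 8 libraries was CR replicate 4. With means of 21.9 ± 5.50 and 25.5 ± 7.50 CPM (SD, n = 4), the difference was smaller than the spread within each diet.

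Cd36 (gene ID 12491, chr5:17781690-17888801, minus strand) takes up fatty acids in adipocytes, muscle, endothelium and macrophages. It measured 3.46, 6.43, 11.4 and 4.16 CPM in AL, and 11.6, 5.68, 13.5 and 5.55 CPM in CR. The diets overlapped, and the means of 6.37 ± 3.60 and 9.07 ± 4.07 CPM (SD, n = 4) differed by a log2 fold change of 0.51 (SE 0.41), not called.

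Pparg (gene ID 19016, chr6:115360951-115490399, plus strand) was counted 0, 9, 8 and 13 times in AL, and 5, 16, 12 and 37 times in CR. These are 0, 0.551, 0.582 and 0.659 CPM against 0.353, 0.946, 0.742 and 2.05 CPM, so CR replicate 1 lay within the AL range and CR replicate 4, low for the adipokines, was here the highest library. The log2 fold change was 1.16 (SE 0.77), not called.

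Pck1 (gene ID 18534, chr2:173153048-173159273, plus strand) makes the enzyme that supplies glycerol for triglyceride in fat cells and glucose in liver and kidney. It had 0, 2, 0 and 6 counts in AL, and 1, 2, 18 and 36 counts in CR. CR replicates 3 and 4, at 1.11 and 1.997 CPM, were above every AL library, and CR replicates 1 and 2, at 0.0707 and 0.118 CPM, were within the AL range below 3 counts.

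The members did not all follow the same libraries. Leaving out Lep, which no library held above the floor, CR replicate 3 was above every AL library for 9 of 9 members, CR replicates 1 and 2 for 6 each and CR replicate 4 for 4. CR replicate 3 was the highest of all 8 libraries for 5 members (Adipoq, Fabp4, Cfd, Lpl and Cd36), CR replicate 2 for Car3 and Retn, and CR replicate 4 for Pparg and Pck1. Summed over the 10 genes, the levels were 38.6, 44.8, 49.7 and 44.6 CPM in AL, and 109, 112.7, 155.3 and 54.3 CPM in CR. The sums did not overlap, and CR replicate 4 was the nearest to AL. Lpl and Cd36, the tested members with the smallest differences, held much of the AL sum, and leaving them out, which widens the gap by that choice, gave 19.6, 15.8, 9.39 and 19.6 CPM in AL and 69.4, 80.2, 109.6 and 33.9 CPM in CR.

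Within a library the members also kept no fixed proportion. The ratio of Fabp4 to Adipoq was 1.32, 1.04, 1.28 and 4.77 in AL, and 1.01, 3.81, 1.66 and 4.82 in CR. That of Cfd to Adipoq was 8.05, 0.795, 1.72 and 3.87 in AL, against 2.70, 2.39, 2.07 and 2.10 in CR. The 4 CR libraries thus held Cfd and Adipoq in a narrower range of ratios than the AL libraries, while Fabp4 varied against Adipoq in both diets.

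A list of 20 further white adipocyte genes was set beside the members. Of these, 11 passed the filter, 2 were called higher, 0 were called lower (by edgeR, DESeq2 or limma voom, and 0 at an unadjusted p under 0.05), and 10 of 11 had a higher fitted level in CR (median log2 fold change 0.62). Pnpla2, the lipase that begins triglyceride breakdown, measured 16.9, 20.3, 25.4 and 17.9 CPM in AL, and 58.4, 65.5, 67.2 and 25.3 CPM in CR. It rose by a log2 fold change of 1.43 (SE 0.28, edgeR, Benjamini-Hochberg adjusted p = 0.0277). CR replicate 4 lay within the AL range.

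Pde3b, the phosphodiesterase through which insulin restrains lipolysis, measured 1.23, 1.04, 0.946 and 1.42 CPM in AL, and 5.44, 9.64, 3.28 and 2.11 CPM in CR, with no overlap. It rose by a log2 fold change of 2.13 (SE 0.46, edgeR, Benjamini-Hochberg adjusted p = 0.039), and limma voom did not call it. Leaving out 1 library kept the call of Pnpla2 in 2 of 8 fits and that of Pde3b in 1 of 8, the one without CR replicate 4.

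The lipid droplet coat gene Plin4 (log2 fold change 1.97, SE 0.60), the lipogenic regulator Thrsp (1.83, SE 0.50) and the droplet protein gene Cidec (1.44, SE 0.72) were not called by edgeR, while DESeq2 called Plin4 and Thrsp higher. Nor were Slc2a4, the insulin-responsive glucose transporter (0.62), Lipe, hormone-sensitive lipase (0.58), Acsl1, which activates fatty acids (0.56), Gpd1 (0.13), Adig (0.04) and Lgals12 (−0.37). Plin1, the defining droplet coat gene of white adipocytes, was too low to test, at 0, 0.368, 0 and 0 CPM in AL and 0.212, 0.592, 1.98 and 0.388 CPM in CR. Mrap measured 0.245 to 0.406 CPM in AL, and 1.63, 1.30, 2.29 and 0.111 CPM in CR. Trarg1 (listed as Tusc5), Acvr1c, Aqp7, Adrb3, Rbp4, Nnat and Sncg were not tested either.

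**Figure D2:**
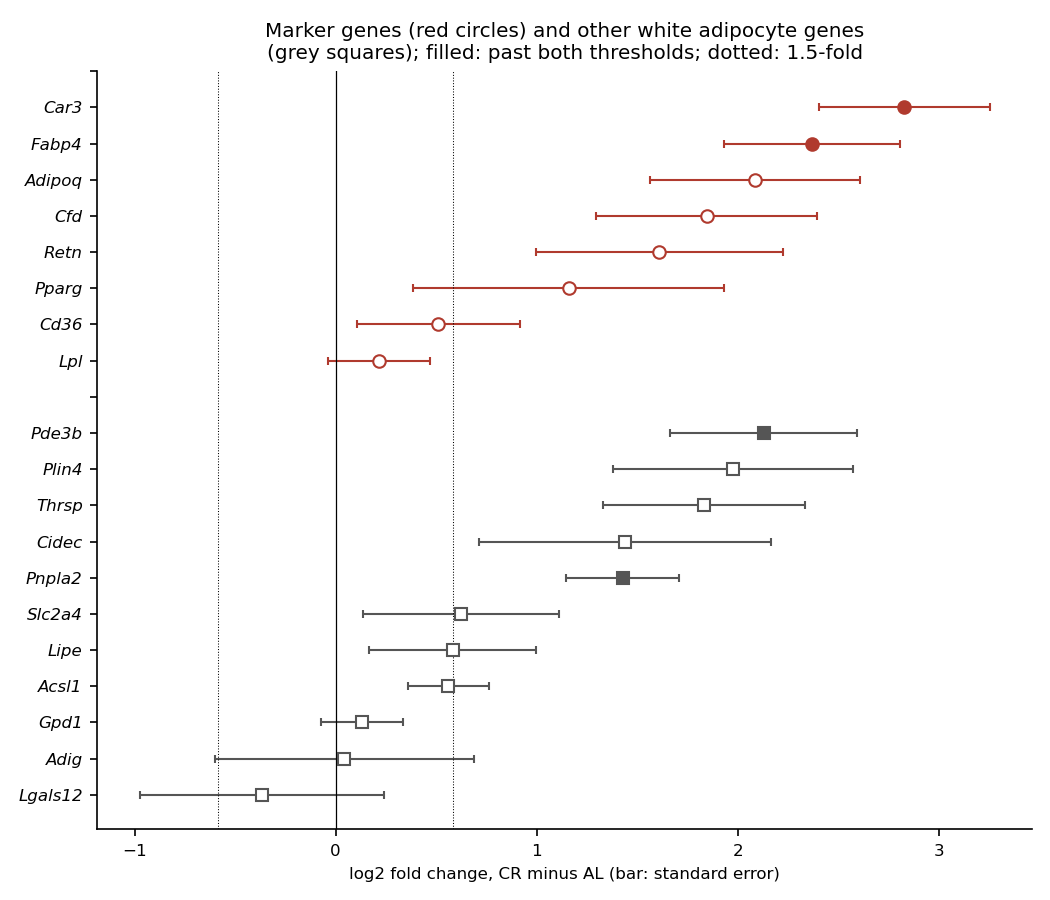
Log2 fold change of CR against AL with its standard error for the 8 marker genes tested (red circles) and 11 other white adipocyte genes tested (grey squares), n = 4 libraries per diet, filled where past both thresholds. Car3 and Fabp4 are farthest to the right among the markers, and Pde3b and Pnpla2 are the filled squares.

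Genes that regulate fat cell formation, and the enzymes that feed the members' lipids, were counted in the same way. Among 10 tested regulators of adipogenesis, 1 was called higher and 0 lower, with a median log2 fold change of 0.04. When p was left unadjusted at 0.05, 2 were higher and 2 lower. DESeq2 called 2 higher and voom 1 higher, and both called 0 lower. Klf5, a factor that acts upstream of Pparg and is also expressed in epithelium, went from 9.33 ± 1.68 to 20.2 ± 4.79 CPM (SD, n = 4), a log2 fold change of 1.11 (SE 0.22, edgeR, Benjamini-Hochberg adjusted p = 0.0275), with no overlap. It kept the call in 3 of 8 fits that left out 1 library. Cebpb (1.06), Nr1h3 (−1.34) and Ebf2 (−1.23) were not called.

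Of 12 genes of fatty acid and triglyceride synthesis tested, 1 was called higher and 1 lower. Of the 12, 10 were fitted higher and 2 lower, with a median log2 fold change of 0.656. At an unadjusted p under 0.05 there were 4 higher and 1 lower. DESeq2 called 3 higher and 1 lower, and voom 1 in each direction. Dgat2, which completes triglyceride, rose from 0.836 ± 0.301 to 3.57 ± 1.78 CPM (SD, n = 4; edgeR, Benjamini-Hochberg adjusted p = 0.0439). Me1, malic enzyme, fell from 52.4 ± 10.9 to 25.8 ± 5.91 CPM (SD, n = 4; edgeR, Benjamini-Hochberg adjusted p = 0.0335). The calls were kept in 1 and 2 of the 8 fits that left out 1 library. Scd1 (log2 fold change 1.40) and Scd2 (−0.45) were not called.

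In a list of 12 other genes of gluconeogenesis and glycerol handling, set beside Pck1, 8 of 12 genes were tested. Ppargc1a, a coactivator of Pparg and of mitochondrial genes, rose from 2.98 ± 2.24 to 21.2 ± 12.4 CPM (SD, n = 4; edgeR, Benjamini-Hochberg adjusted p = 0.0497), with CR replicate 4 at 3.44 CPM inside the AL range, and of the 8 fits leaving out 1 library its call was kept only in the one without CR replicate 4. Pck2 (log2 fold change 0.77), Gk (−0.24) and Mdh1 (−0.07) were not called, and G6pc and Tat had 0 counts in every library. Among 12 genes for adipokine receptors and partners of Lpl and Cfd, 0 were called by edgeR. At an unadjusted p under 0.05 there were 6 higher and 2 lower, DESeq2 called 1 in each direction and voom 1 higher. Angptl4, an inhibitor of Lpl, stood at a log2 fold change of 2.34, the leptin receptor gene Lepr at 2.05, and the complement genes C3 and Cfb at −1.17 and −1.42.

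Markers of other cells that express Fabp4, Cd36, Lpl or Car3 were summed in each library. The 10 brown and beige adipocyte markers ran from 7.06 to 12.7 CPM in AL and from 7.63 to 11.7 CPM in CR, with 0 of 3 tested called by edgeR (0 by voom, 1 in each direction by DESeq2 and likewise at an unadjusted p below 0.05), Ucp1 at 2 counts in AL replicate 2, 1 count in CR replicate 2 and 0 in the other libraries, and Cpt1b at 0 throughout. Preadipocyte markers summed to 47.3 to 72.1 CPM in AL and 53.5 to 129.8 CPM in CR, and endothelial markers to 15.5 to 25.1 and 20.8 to 30.9 CPM, with 0 of 8 called in each list by edgeR, DESeq2 or voom. At an unadjusted p under 0.05 there were 1 higher and 1 lower preadipocyte gene and 1 higher endothelial gene. Ly6a, also expressed by endothelium, carried the higher preadipocyte sum, at 8.47 to 26.9 CPM in AL and 11.7 to 101.0 CPM in CR, while 4 of the 8 tested genes of that list were fitted higher and 4 lower. Macrophage markers were at 105.2 to 275.3 CPM in AL and 65.4 to 117.5 CPM in CR, where Lyz2, lysozyme, was the 1 of 10 called and was lower (log2 fold change −1.48). Of the 10, 9 were fitted lower, 7 were lower when p was left unadjusted at 0.05, 2 by DESeq2 and 1 by voom.

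The highest and lowest log2 fold changes in these lists were as follows. Cox7a1 (2.32), Cidea (−0.44) and Prdm16 (−1.05) were the brown and beige genes tested. Ly6a (1.64), Dact2 (0.36), Pi16 (−0.67) and Cd34 (−0.83) bounded the preadipocyte list, and Emcn (1.01), Cdh5 (0.96), Tie1 (−0.59) and Vwf (−0.73) the endothelial list. Cd163 (0.19), Cd14 (−0.26) and Adgre1 (−1.21) were not called among the macrophage genes.

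Skeletal muscle markers summed to 19.2, 1.35, 4.08 and 12.4 CPM in AL, and 4.73, 79.1, 6.31 and 60.8 CPM in CR, and 0 of 8 tested were called by edgeR or voom, with 3 higher at an unadjusted p under 0.05 and 1 by DESeq2. Mylpf (log2 fold change 2.47), Acta1 (2.26), Myh1 (1.38) and Tnni2 (1.08) bounded that list. Among fibroblast markers the collagen genes Col3a1 (−2.79) and Col1a1 (−2.50) were called lower and Dcn (0.22) and Col6a1 (−0.24) were not called, with 5 of 10 lower when p was left unadjusted, 3 by DESeq2 and 2 by voom, and the list summed to 267.3 to 421.6 CPM in AL and 246.2 to 319.7 CPM in CR. The parotid genes Prp2 (9.85), Prh1 (9.72) and Prb1 (5.88) were called higher, with Amy1 (3.59) and Car6 (1.68) not called by edgeR, while DESeq2 called all 7 genes of the list higher. Of the LG markers Sox10 was higher (2.13) and Pigr lower (−0.95), and Barx2 (1.53) and Ltf (−1.16) were not called. Leaving out 1 library kept the calls of Prp2, Sox10, Col1a1 and Col3a1 in all 8 fits, of Prh1 in 6, of Lyz2 and Prb1 in 2 each and of Pigr in 1. The member sums and the parotid sums were both higher in each CR library than in any AL library. Both sums were lowest among the CR libraries in replicate 4. Single parotid genes did not all share this pattern. Prb1, Prh1 and Prp2 were lowest among the CR libraries in replicate 3, at 233, 217.2 and 20.66 CPM. Bpifa2 and Amy1 in CR replicate 4, at 13680 and 3273 CPM, were below AL replicate 1, at 17720 and 5624 CPM. A parotid score, the mean log2 CPM of the 7 parotid genes, was added to the edgeR fit as a covariate. It ran from 2.773 to 7.935 in AL and from 10 to 13.38 in CR, without overlap. Score and diet therefore cannot be cleanly told apart, and nothing is read from the lost calls. In that fit 0 members were called, and over all genes 3 were called higher and 0 lower. The log2 fold changes were 3.49 for Fabp4, 3.53 for Car3, 1.80 for Adipoq, 0.99 for Cfd and −0.16 for Retn. The median over the members tested was 1.39. The part of these other tissues in the members' levels was not tested.

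**Figure D3:**
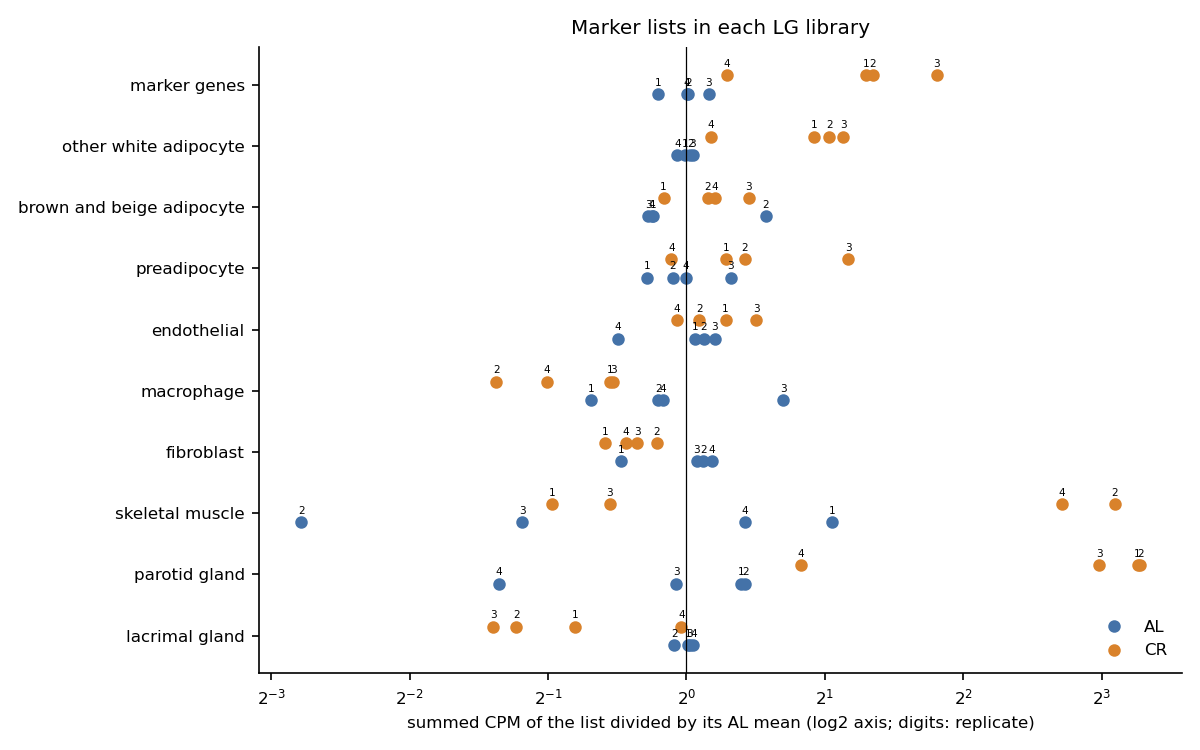
Summed CPM of each marker list in every library divided by the AL mean of the list, on a log2 axis, with AL in blue, CR in orange and the replicate number above each point. For the adipocyte markers, 109, 112.7 and 155.3 CPM in CR replicates 1 to 3 stand apart from 54.3 CPM in CR replicate 4, which lies near the AL libraries.

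The genes whose level followed Adipoq most closely were sought among 11210 others by the root mean square difference of centred log2 CPM over the 8 libraries. The nearest 8 were Wipf3 (0.295), Sox10 (0.417), Gpihbp1 (0.422), Klc3 (0.458), Fam161a (0.464), Vnn3 (0.482), Ak4 (0.483) and Phactr1 (0.49). Gpihbp1 anchors Lpl to capillary endothelium, and Sox10 marks myoepithelial and acinar cells. Gpihbp1 had 2, 13, 1 and 0 counts in AL replicates 1 to 4, mostly below the floor of 3 counts. Its rank thus rests in part on values near 0. Of the members, Retn was the nearest, at rank 128, followed by Cfd at 323, Fabp4 at 400, Car3 at 403, Cd36 at 575, Lpl at 1028 and Pparg at 8070. All 8 libraries are shared by these profiles, and the ranks are a description.

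**Figure D4:**
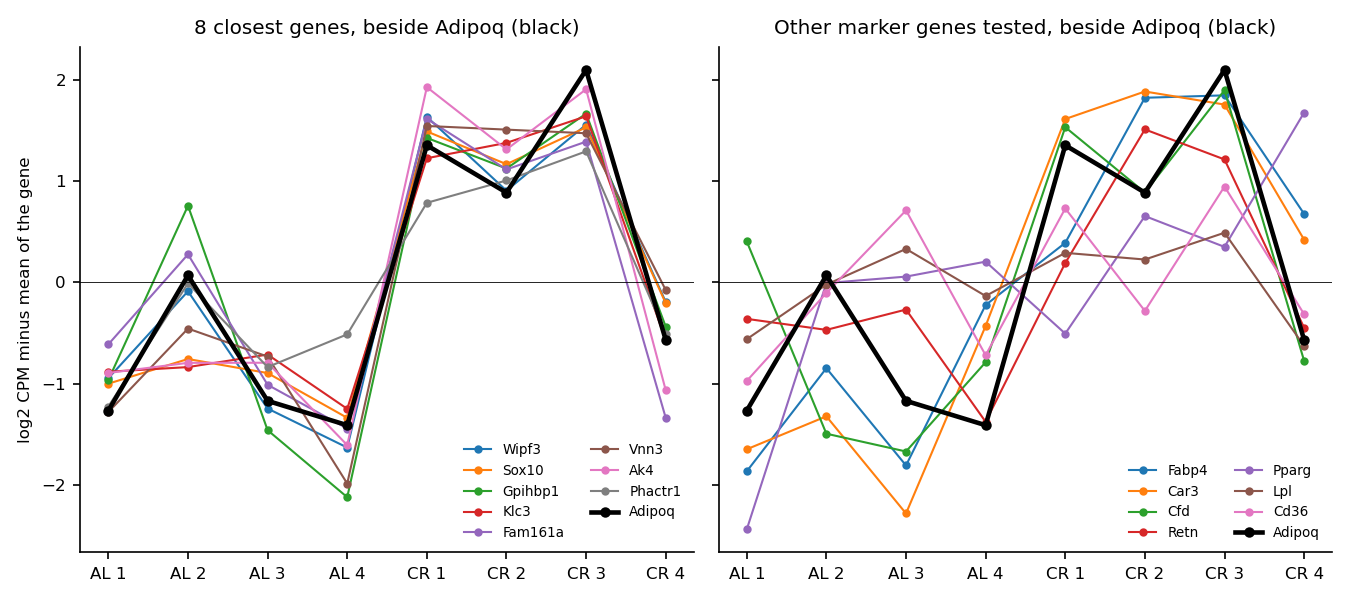
Log2 CPM of each gene minus its mean over the 8 libraries, for the 8 genes nearest to Adipoq (left) and the 7 other marker genes tested (right), with Adipoq in black. The nearest genes are high in CR replicates 1 to 3 and lower in CR replicate 4, as Adipoq is, whereas Pparg is highest in CR replicate 4.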

How the data were processed

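RNA from 4 AL and 4 CR LGs was made into 3' libraries. According to the study's methods, the authors trimmed reads with cutadapt, checked them with FastQC, aligned them to mm10 with STAR and counted reads per gene with HTSeq; versions are not given in the sources used here. The deposited raw counts, whole numbers per gene, were used for all results. The deposited log2 values, which the authors normalized with DESeq2, were recomputed from the counts with a largest difference of 0 and not used further.

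Groups were taken from the treatment label. Repeated symbols were dropped (24557 to 24552 genes), low genes were removed by edgeR's filterByExpr (11211 left), and relative log expression factors and the quasi-likelihood test of edgeR 4.0.16 in R 4.3.3 compared CR with AL. Depth was 12051881 to 22156511 counts per library. The floor of 3 counts covers counting error only, while SDs and standard errors include the variation between libraries. The test was checked on simulated data. No member overlapped another gene's exons in GENCODE or shared any 75-base window of its last 600 transcript bases with another gene.

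The members and lists were chosen with earlier results of these data known. Named were the 10 members, every other white adipocyte gene, and in the remaining lists (adipogenic regulators, fatty acid and triglyceride synthesis, adipokine receptors and lipase partners, gluconeogenesis and glycerol, brown and beige adipocyte, preadipocyte, endothelial, macrophage, fibroblast, skeletal muscle, parotid, LG) called genes, the 2 highest and 2 lowest fold changes, markers at 0, and the 8 genes nearest to Adipoq. Alternatives were other scaling factors, DESeq2 1.42.0, limma 3.58.1 voom, other filters, a replicate block, the parotid score as a covariate, omission of the 50 most counted genes and omission of each library; leaving out CR replicates 2 and 4 together, those with most skeletal muscle counts, was chosen after seeing the data.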

Additional observations from a re-analysis of the deposited data

Results flagged for a closer look

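The 21 marker and white adipocyte genes gave 42 groups of 4 libraries. All but Lep in AL, at 0 in every library, were searched for a library far from the other 3. The measure was the gap to its nearest neighbour over the group's range, with Dixon's critical value, which flags about 1 in 20 groups by chance. In 3 groups a library stood apart. Adipoq was 4.47 CPM in AL replicate 2, with 1.82 CPM in the nearest AL library (gap over range 0.899). Pparg was 0 CPM in AL replicate 1, with 0.551 CPM in the nearest (0.837). Lgals12, a galectin gene of adipocytes, was 4.22 CPM in CR replicate 4, with 1.06 CPM in the nearest (0.925).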

How the results depend on the processing

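Against 2 members called higher, 4 were called with no filter on low counts, 4 with the replicate block, 4 without CR replicates 2 and 4, 3 with DESeq2 (Adipoq, Fabp4 and Car3), 3 with voom (Fabp4, Car3 and Cfd), 0 with the parotid covariate, and 1 to 4 when each library was left out; 0 were lower in all of these. Of the other white adipocyte genes, 2 were called higher, against 4 with DESeq2, 1 with voom, 0 with the parotid covariate and 0 to 5 with 1 library left out. Over all genes, 134 higher and 88 lower calls became 387 and 317 with DESeq2, 237 and 160 with voom, 271 and 165 with no filter, 388 and 312 with the replicate block, 3 and 0 with the parotid covariate, 315 and 134 without CR replicates 2 and 4, and 35 to 453 and 25 to 247 with 1 library left out. With the parotid covariate Retn reversed to −0.16, and the cause was not tested. The other members tested stayed positive (0.04 for Lpl to 3.53 for Car3). The parotid score did not overlap between the diets, so nothing is read from the lost calls. Of 145 alternative log2 fold changes of members, 127 kept sign and call. Deviations of same-numbered AL and CR libraries correlated at 0.149, 0.0795, 0.244 and 0.462, and 3 of 4 AL libraries were closest to their own number, and since only 3 of the 4 correlations passed 0.1, the minimum asked of every pair, the numbers were not taken to pair the libraries; the replicate block called Adipoq and Cfd as well as Fabp4 and Car3. Depth limits Lep, Pck1 and Pparg, which had few or no counts in several libraries.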
